A study of Rattus norvegicus with 8 samples.

Results

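The NMDA receptor subunits were examined in the lumbar spinal cord of stressed and control rats. The 7 genes, Grin1, Grin2a, Grin2b, Grin2c, Grin2d, Grin3a and Grin3b, were chosen by name, as all the genes that encode subunits of this receptor, and they are 7 of 13265 gene symbols with a tested value. They carried 9 of the 23678 tested probes, 2 each for Grin1 and Grin3a and 1 for each of the other subunits. The rule uses gene names and no measured value, though earlier results of these data were known when the receptor was chosen.

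Adult male Wistar rats, 12 weeks old by their labels, were used in both groups, with 4 rats in each and 1 array per rat. Rats of the stress group were placed for 1 h a day on a small platform with water around it, on 10 days (chronic water avoidance stress), and segments L6S1 of the cord were dissected 24 h after the final session, on day 11. Control rats were handled over the same period. The cord was flushed out with cold saline and freed of meninges, and RNA of the whole segment, with neurons and glia mixed, was hybridised to Agilent 1-colour rat arrays.

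NMDA receptors are cation channels that pass calcium, and the conventional ones, of GluN1 and GluN2, conduct when glutamate and a co-agonist, glycine or D-serine, are both bound and depolarisation has relieved the block of the pore by magnesium. Each channel is built of obligatory GluN1 subunits (Grin1) together with glutamate-binding GluN2 subunits (Grin2a to Grin2d), glycine-binding GluN3 subunits (Grin3a, Grin3b) or both, and channels of GluN1 and GluN3 alone are opened by glycine. In the dorsal horn of the cord they are known for their part in the lasting gain of nociceptive synapses, the process called central sensitization.

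No subunit passed the test of stressed against control rats after adjustment. At a false discovery rate (FDR) below 0.1, limma called 0 of the 9 subunit probes, against 885 of all tested probes (3.74%). Grin2d had the largest difference, 1.98-fold higher in stressed rats (0.98 on the log2 scale, and 0.04 when 5′ to 3′ coverage of the RNA was a covariate). It was the only subunit at an unadjusted p below 0.05 (1 of 9 probes, against 20.3% of all tested probes). The stressed and control values overlapped at 9 of 9 probes, whereas they were apart at 12.1% of all tested probes. The result for 6 of the 9 probes rested on 1 control rat, control rat 2. Without that rat these 6 were called, against 42.4% of all tested probes.

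The sequences of 8 probes are shown because each value below is the signal of 1 such stretch of a transcript, and because the probes of Grin1 and Grin3a read different stretches. They are written 5′ to 3′ in transcript sense, no base is capitalised since no motif was searched, and for the probes of Grin2c, Grin3a and Grin3b only the first 30 of 60 bases are given.
Grin1 probe 1: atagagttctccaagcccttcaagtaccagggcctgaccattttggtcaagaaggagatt
Grin1 probe 2: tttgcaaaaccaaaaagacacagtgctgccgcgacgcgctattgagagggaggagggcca
Grin2b: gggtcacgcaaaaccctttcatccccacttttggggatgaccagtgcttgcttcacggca
Grin2c: tgacctcttgcggtggtcacagggagtaaa
Grin2d: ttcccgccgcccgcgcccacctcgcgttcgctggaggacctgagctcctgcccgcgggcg
Grin3a probe 1: ccgtcgctcatacctgtgtcttactgggtt
Grin3a probe 2: atctagatctgatctaacattctgaatgag
Grin3b: ggcgcctgctgagagctgaggaaccacaag
The Grin2d probe stands out in composition, with 78.3% G and C, against 35% to 55% for the other 8.

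On the rn4 assembly, the files place Grin1 probe 1 at chr3:3460217-3460350 and Grin1 probe 2 at chr3:3454949-3455008, both on the minus strand. Probe 1 has 60 bases but spans 134 bases of the genome, so it crosses a splice junction. The probes of the following subunits are also on the minus strand, at chr4:172722609-172722668 (Grin2b), chr10:105323397-105323456 (Grin2c), chr1:96309508-96309567 (Grin2d), chr5:66406544-66406603 and chr5:66406453-66406512 (Grin3a probes 1 and 2) and chr7:11244019-11244078 (Grin3b). The place of the probes in exons and UTRs was not analysed here.

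All 9 probes were well above background on all 8 arrays and none was saturated. Neuronal markers were also present: of 8 such genes, Snap25, Syt1, Eno2, Nefl, Nefm, Tubb3 and Stmn2 had a tested probe and were detected on 8 of 8 arrays. The log2 of the summed signal of these 7 genes ranged from 7.62 to 7.74 in control rats and from 7.58 to 7.83 in stressed rats. Control rat 2 was at 7.62. The brightest genes weigh most in this sum, so it does not speak for each gene. Within this list Eno2, a neuronal enolase, was lower in stressed rats (-0.37, limma adjusted p = 0.0649, without overlap). Nefl, a neurofilament, differed by 0.57 (limma adjusted p = 0.12) and did not pass the test, and neither did the other 5. Of these 5, Tubb3 was higher in stressed rats without overlap (0.14, limma adjusted p = 0.338). Because the tissue is mixed, fewer cells of a type and less RNA per cell cannot be told apart. Levels are given as the log2 signal after the 75th percentile of its array had been subtracted. They are not ranked between subunits, since probes bind with different strength. The fluorescence before scaling ran from 22.5 to 53.6 for Grin2b, the dimmest subunit probe, and from 13200 to 38400 for Grin2d, the brightest.

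The arrays themselves differed in a way that touches every value. For 1786 transcripts outside the NMDA receptor with probes at least 300 bases apart, the signal at the 5′ end was set against that at the 3′ end on the log2 scale. Relative to the mean of the arrays, the median of this 5′ minus 3′ difference was -0.31, 0.23, -0.30 and -0.18 in control rats 1 to 4 and 0.17, 0.15, 0.17 and 0.09 in stressed rats 1 to 4. The array labelled control rat 2 was thus on the side of the stressed rats, against its label. It was there too on the first principal component of all tested probes (54.06% of the variance), at 46.1, with the other control rats between -56.3 and -39.4 and the stressed rats between 8.23 and 34.5. Whether the RNA or the label of this array sets it apart was not tested, so each subunit difference is also given without it. The 4 stressed arrays were on 1 slide, in row 1, and the 4 control arrays were on 1 slide, in row 2. Row and stress therefore cannot be told apart. Whether both groups shared the same slide was not compared.

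**Figure D1:**
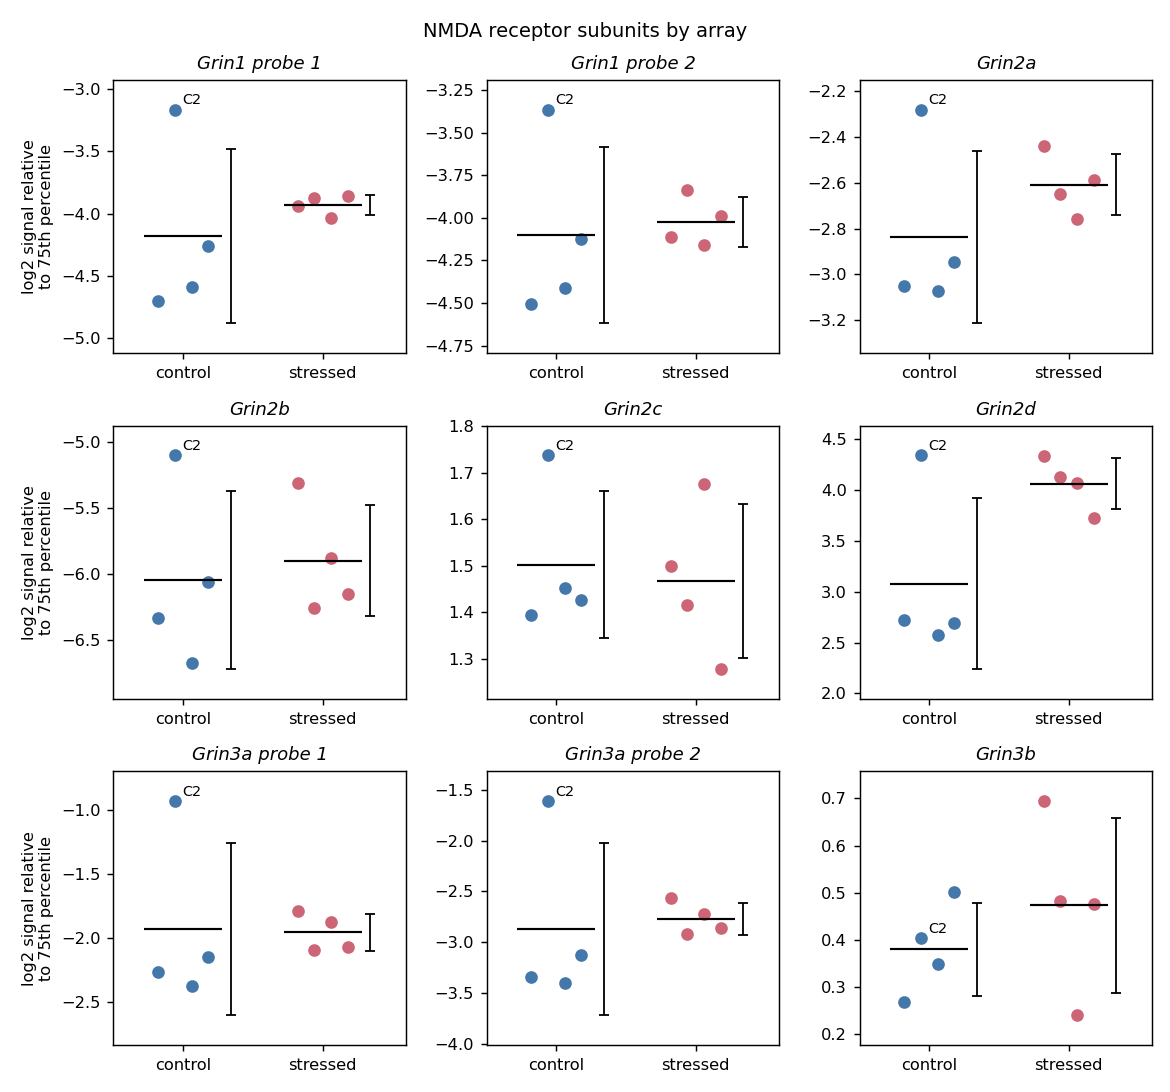
Log2 signal, scaled to the 75th percentile of its array, for each probe of the 7 subunits, on a separate scale per panel. Points are single rats (4 control in blue, 4 stressed in red), lines are means, bars are SD, and C2 marks control rat 2. C2 is the highest control value in 8 of 9 panels, all but Grin3b, and in no panel are the groups apart.

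Grin1 encodes GluN1, the subunit that every NMDA receptor contains. At probe 1 the control rats 1 to 4 had -4.70, -3.16, -4.59 and -4.26, and the stressed rats had -3.94, -3.88, -4.04 and -3.86. All 4 stressed rats lay above control rats 1, 3 and 4 and below control rat 2. The difference, stressed minus control, was 0.25 (SE 0.31, 95% interval -0.47 to 0.98, limma adjusted p = 0.658). At probe 2 the control rats had -4.51, -3.37, -4.41 and -4.12 and the stressed rats -4.11, -3.83, -4.16 and -3.99. One stressed rat here was below control rat 4, and the difference was 0.08 (SE 0.24, 95% interval -0.48 to 0.63, limma adjusted p = 0.867).

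Grin2a encodes GluN2A, a GluN2 subunit of mature synapses. Control rats 1 to 4 had -3.05, -2.28, -3.07 and -2.95, and stressed rats 1 to 4 had -2.44, -2.65, -2.76 and -2.59. The stressed rats again lay between control rat 2 and the other 3 control rats. Control rats had a mean of -2.84 ± 0.38 and stressed rats of -2.61 ± 0.13 (SD, n = 4 each). The difference was 0.23 (SE 0.18, 95% interval -0.19 to 0.65, limma adjusted p = 0.489).

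Grin2b encodes GluN2B, the subunit with slower closing channels that predominates early in development. Control rats 1 to 4 had -6.34, -5.10, -6.68 and -6.07, and stressed rats 1 to 4 had -5.31, -6.26, -5.88 and -6.15. The highest and the lowest rat of all were both controls. The difference was 0.15 (SE 0.35, 95% interval -0.67 to 0.96, limma adjusted p = 0.829), an interval wide enough to hold changes of either sign, from a single dim spot per array.

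The balance of GluN2B to GluN2A was compared within each array, where scaling cancels. Grin2b minus Grin2a was -3.28, -2.82, -3.61 and -3.12 in control rats 1 to 4 and -2.88, -3.61, -3.12 and -3.56 in stressed rats 1 to 4. The groups overlapped over nearly their whole range, with means of -3.21 ± 0.33 and -3.29 ± 0.35 (SD, n = 4 each). The difference was -0.08 (two-sided exact permutation test over 70 choices of 4 arrays, p = 0.686), and the smallest p that this design allows is 0.0286. It was 0.04 without control rat 2 (exact permutation test, p = 0.914).

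Grin2c encodes GluN2C, best known from the cerebellum and also found in glia. Control rats 1 to 4 had 1.39, 1.74, 1.45 and 1.43, and stressed rats 1 to 4 had 1.499, 1.42, 1.68 and 1.28. Control rat 2 was again the highest and stressed rat 4 the lowest. The difference was -0.04 (SE 0.11, 95% interval -0.30 to 0.23, limma adjusted p = 0.875). This interval and that of Grin3b were the narrowest among the subunits.

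Grin2d encodes GluN2D, whose channels close slowly and are weakly blocked by magnesium. Control rats 1 to 4 had 2.72, 4.34, 2.57 and 2.69, and stressed rats 1 to 4 had 4.33, 4.13, 4.07 and 3.73. Control rat 2 was the highest of all 8 rats, and the other 3 control rats lay below every stressed rat by at least 1 unit. Control rats had a mean of 3.08 ± 0.84 and stressed rats of 4.07 ± 0.25 (SD, n = 4 each). The difference was 0.98 (SE 0.39, 95% interval 0.09 to 1.88), or 1.98-fold with an interval of 1.06 to 3.68. It did not pass the threshold (limma adjusted p = 0.219, and p = 0.143 by the two-sided exact permutation test). It was 1.40 without control rat 2, 0.04 with 5′ to 3′ coverage as covariate and 0.44 after removal of the trend with GC content. Both spots of the probe gave the same picture, since they differed by at most 0.17 on any array.

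Grin3a encodes GluN3A, which lowers calcium entry through the receptors that contain it. At probe 1 control rats 1 to 4 had -2.27, -0.93, -2.38 and -2.15, and stressed rats 1 to 4 had -1.79, -2.09, -1.88 and -2.07. The stressed rats were all above control rats 1, 3 and 4 and below control rat 2. The difference was -0.03 (SE 0.31, 95% interval -0.73 to 0.68, limma adjusted p = 0.967). At probe 2, the control rats had -3.34, -1.61, -3.40 and -3.13 and the stressed rats -2.56, -2.92, -2.73 and -2.87. The order was the same as at probe 1, with a difference of 0.10 (SE 0.38, 95% interval -0.78 to 0.98, limma adjusted p = 0.891).

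Grin3b encodes GluN3B, known above all from motor neurons of the brainstem and cord. Control rats 1 to 4 had 0.27, 0.40, 0.35 and 0.50, and stressed rats 1 to 4 had 0.69, 0.48, 0.24 and 0.48. Control rat 2 was in the middle of its group here, and stressed rats held both the highest and the lowest value. The difference was 0.09 (SE 0.11, 95% interval -0.15 to 0.34, limma adjusted p = 0.633). Of 6 genes that mark motor neurons, 5 were tested and 0 were called, against 3.63% of all gene symbols. The log2 of their summed signal was 3.20 to 3.55 in control rats and 2.83 to 3.36 in stressed rats.

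Over all 9 probes, 7 differences were above 0 with a median of 0.10, against a median of 0.06 over all tested probes. With quantile normalization, 5 of the 9 were above 0, with a median of 0.01. The subunits therefore showed no common direction that held under both scalings.

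Leaving out control rat 2 changed this account. Of the 9 probes, 6 were then called, all higher in stressed rats, while 42.4% of all tested probes were also called. Grin2d differed by 1.40 (SE 0.14, limma adjusted p = 0.00103) and Grin2a by 0.42 (SE 0.09, limma adjusted p = 0.0121). Grin1 differed by 0.59 and 0.32 at probes 1 and 2, and Grin3a by 0.31 and 0.52. Grin2b (0.46, limma adjusted p = 0.204), Grin2c (0.04) and Grin3b (0.10) did not pass. With all 8 arrays kept and the 5′ minus 3′ difference added to the fit as a covariate, 4 of the 9 probes were called, all lower in stressed rats, against 9.91% of all tested probes. These were both probes of Grin1 (-0.51 and -0.48) and both of Grin3a (-0.78 and -0.84). Grin2d then differed by 0.04 (SE 0.17, 95% interval -0.35 to 0.44, limma adjusted p = 0.908). This fit depends on control rat 2 as well. Apart from that rat (0.23), the 5′ minus 3′ difference was below 0 in every control rat and above 0 in every stressed rat. Coverage thus overlapped between the groups only through that 1 array. Between the fit without control rat 2 and the fit with the covariate, the sign of the difference thus turned for Grin1 and Grin3a, called in both. It also turned for Grin2a (-0.18 with the covariate), Grin2b (-0.62) and Grin2c (-0.23). Whether RNA coverage or stress sets the sign was not tested.

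**Figure D2:**
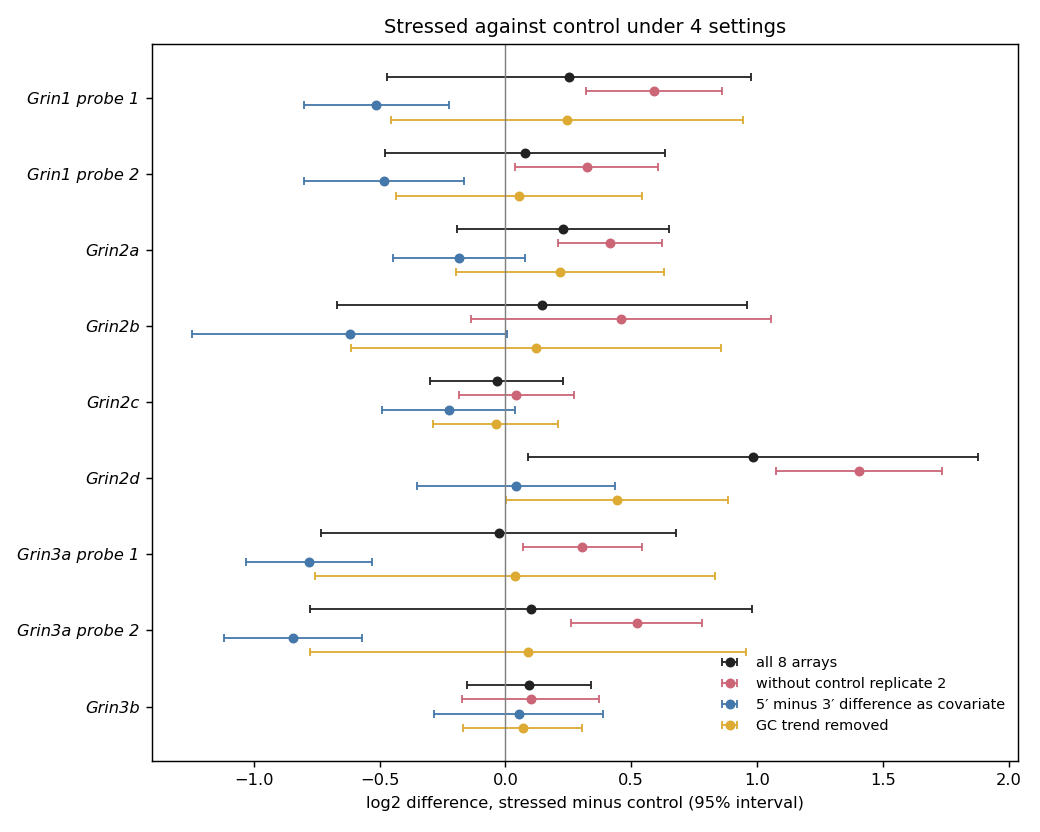
Log2 difference, stressed minus control, with its 95% interval for each subunit probe, from all 8 arrays (black), without control rat 2 (red), with the 5′ minus 3′ difference as covariate (blue) and after removal of the trend with probe GC content (yellow). Points of Grin1, Grin2a, Grin2b, Grin2c and Grin3a lie to the right of 0 in red and to the left in blue. Grin2d moves from 1.40 to 0.04. Grin3b stays near 0, and so does Grin2c except in blue (-0.23).

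**Figure D3:**
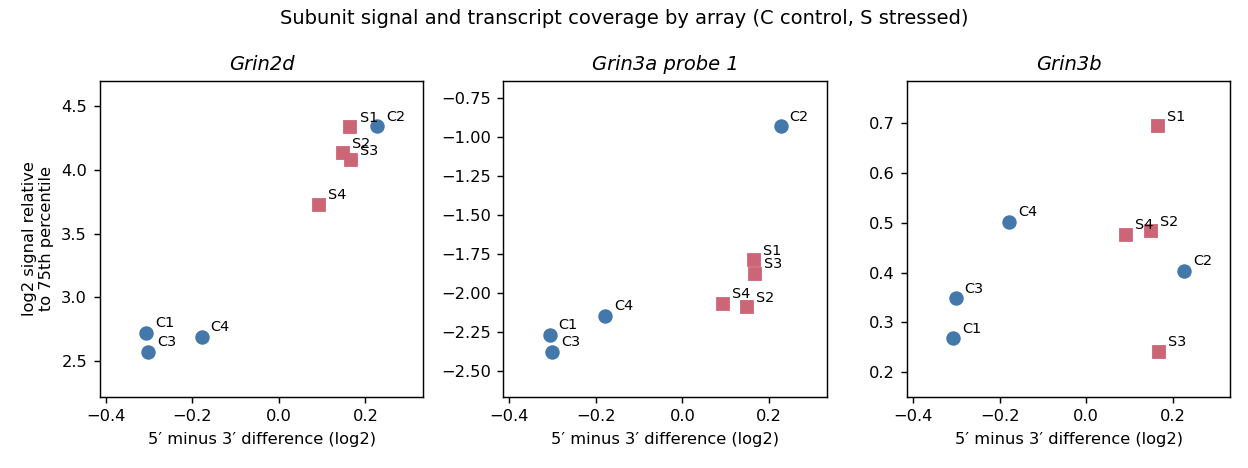
Log2 signal of Grin2d, Grin3a (probe 1) and Grin3b on each array against the 5′ minus 3′ difference of that array. Points are single rats, circles control (C1 to C4) and squares stressed (S1 to S4). C2 lies with the stressed rats for Grin2d, above all rats for Grin3a and among the other controls for Grin3b.

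Probes as rich in G and C as that of Grin2d behaved alike across the array. Of all tested probes, 96 had at least 75% G and C. Their median difference was 0.71, 94 of them (97.9%) were higher in stressed rats, and 20 (20.8%) differed by at least as much as Grin2d. The median of these probes, relative to their own mean over arrays, was -0.57, 0.49, -0.73 and -0.59 in control rats 1 to 4 and 0.63, 0.30, 0.35 and 0.11 in stressed rats 1 to 4. The pattern of Grin2d over the 8 rats, control rat 2 included, was thus shared by its GC class. After the trend with GC content was removed from each array, Grin2d differed by 0.44 (SE 0.19, limma adjusted p = 0.245). The classes of GC content and this removal were chosen after the data were seen.

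**Figure D4:**
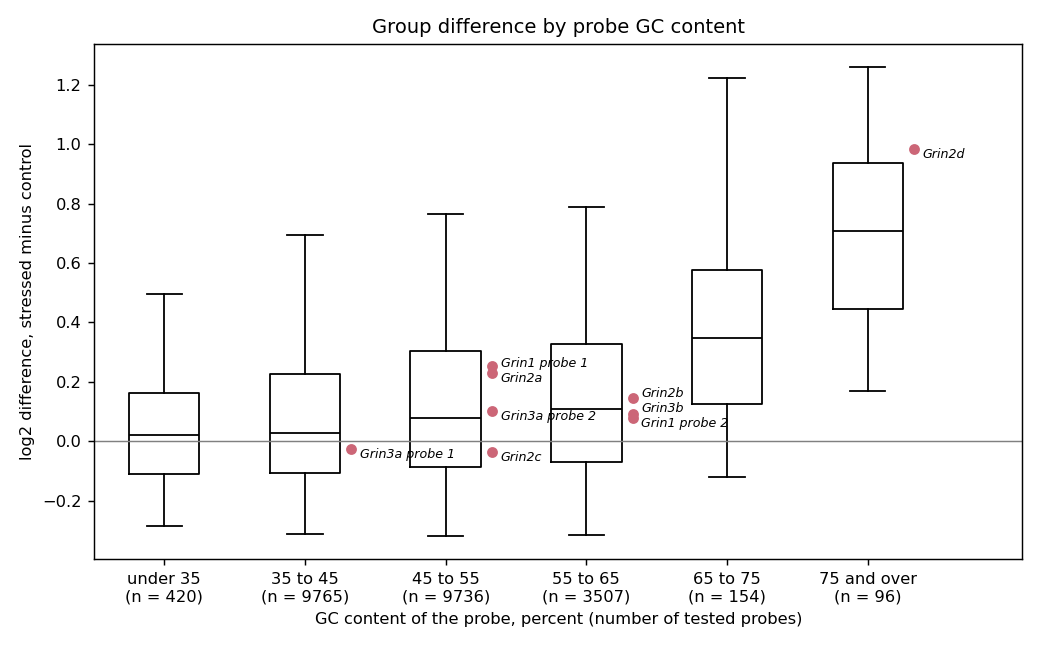
Log2 difference, stressed minus control, of all tested probes by GC content of the probe, with the median (line), quartiles (box) and the 5th to 95th percentile (whiskers), and the subunit probes in red beside their class. The median rises from 0.02 below 35% to 0.71 at 75% and over, and Grin2d, at 0.98, lies inside the whiskers of its class.

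The genes around the receptor were read from 5 lists with 67 genes, of which 62 were tested. At FDR below 0.1, limma called 0 of the 62, against 3.63% of all gene symbols, while 18 had an unadjusted p below 0.05, against 19.8% of all gene symbols. The groups were apart for 12 of them, against 13.2% of all gene symbols. Stressed rats were above control rats for 3 of these genes (5.9% of all gene symbols) and below for 9 (7.27% of all gene symbols). The median difference was 0.03, against 0.02 over all gene symbols. By list, 0 of 14 scaffolds and adaptors of the postsynaptic density, 0 of 9 accessory and anchoring proteins, 0 of 15 kinases and phosphatases, 0 of 10 calcium and nitric oxide effectors and 0 of 14 genes of co-agonist supply were called.

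Among the scaffolds, Shank3, which links the receptor complex to actin, had the smallest p. Control rats 1 to 4 had 0.80, 0.81, 0.95 and 0.88, and stressed rats 1 to 4 had 0.65, 0.53, 0.42 and 0.65. All stressed rats were below all control rats, with a difference of -0.30 (SE 0.08, limma adjusted p = 0.121). Ap2m1, a subunit of the clathrin adaptor that takes receptors into the cell, differed by -0.22 (limma adjusted p = 0.133), without overlap. Camk2g, a calcium/calmodulin-dependent kinase, differed by -0.21 (limma adjusted p = 0.167), and Capn1, a calcium-activated protease, by -0.19 (limma adjusted p = 0.226), both without overlap. For these 4 genes control rat 2 lay with the other controls.

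Genes of co-agonist supply had the highest median of the 5 lists, 0.16. Slc7a10, a transporter of D-serine and glycine, was at 1.78, 2.32, 1.79 and 1.82 in control rats 1 to 4 and at 2.43, 2.34, 2.41 and 2.32 in stressed rats 1 to 4. The groups were just apart, with control rat 2 and stressed rat 4 both at 2.32, and the difference was 0.45 (SE 0.13, limma adjusted p = 0.135). Shmt2 and Shmt1, the mitochondrial and cytosolic enzymes that interconvert serine and glycine, went the other way. Shmt2 had -0.13, -0.19, 0.0029 and -0.0005 in control rats and -0.41, -0.38, -0.40 and -0.30 in stressed rats, a difference of -0.29 (SE 0.07, limma adjusted p = 0.103) without overlap. Shmt1 differed by -0.37 (SE 0.10, limma adjusted p = 0.12), also without overlap. Srr, which makes D-serine, differed by 0.03 (95% interval -0.15 to 0.22).

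The larger differences among these genes were shaped like that of Grin2d. Camk2d, another isoform of the same kinase family, had -4.43, -2.27, -4.19 and -4.06 in control rats 1 to 4 and -2.58, -2.56, -2.47 and -2.69 in stressed rats 1 to 4, a difference of 1.16 (SE 0.44, limma adjusted p = 0.203). Dlg4, which encodes the scaffold PSD-95, differed by 0.86 (SE 0.28, limma adjusted p = 0.164). Camk2d, Dlg4 and Srr were named after their values were seen. Without control rat 2, 36 of the 62 genes were called, 24 higher and 12 lower, or 58.1% against 42.4% of all tested probes. Each gene stands by its brightest probe here, and the matching share of gene symbols was not computed for this fit.

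Of the AMPA and kainate receptor subunits, the other ionotropic glutamate receptors, 0 of 9 were called, against 3.63% of all gene symbols. Their median difference was -0.04, against 0.02 over all gene symbols. Grik2, which encodes the kainate subunit GluK2, had the smallest p, with -3.66, -2.19, -3.36 and -3.27 in control rats 1 to 4 and -2.14, -2.25, -2.15 and -2.25 in stressed rats 1 to 4. Control rat 2 was again within the stressed group, and the difference was 0.92 (SE 0.29, limma adjusted p = 0.154). Without control rat 2, 2 of the 9 were called higher and 1 lower (33.3%), against 42.4% of all tested probes, a share again not of gene symbols.

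**Figure D5:**
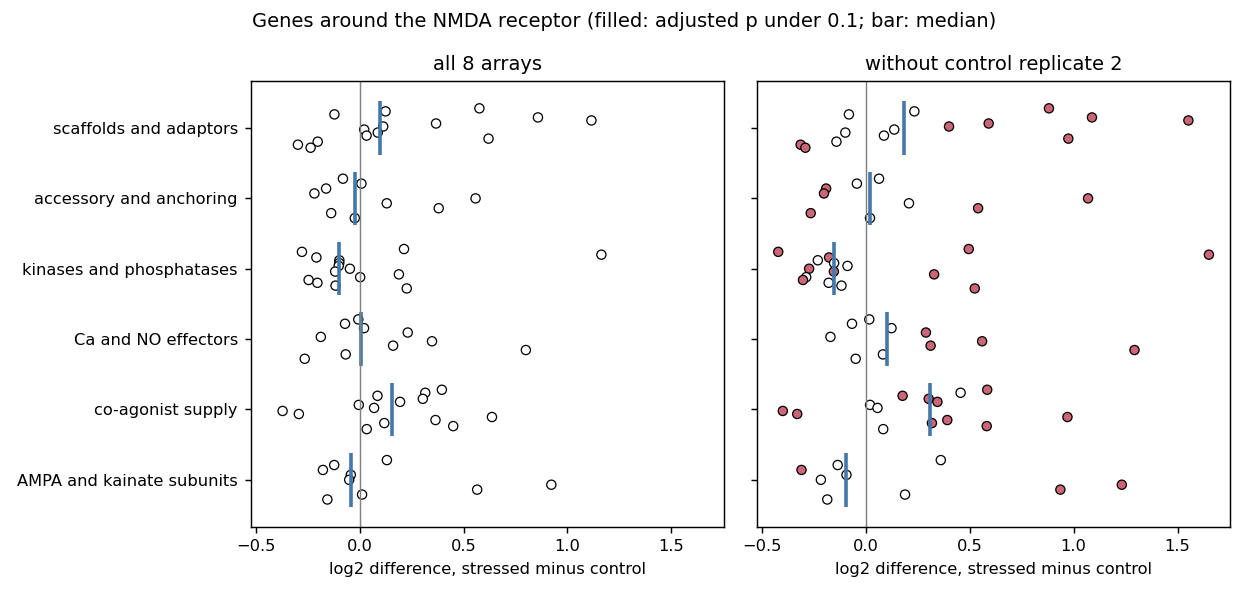
Log2 difference, stressed minus control, of each tested gene of the 5 lists around the NMDA receptor and of the AMPA and kainate subunits, from all 8 arrays (left) and without control rat 2 (right). Each point is a gene, filled points have an adjusted p under 0.1, and blue bars are medians of a list. No point is filled on the left, and 36 of 62 genes around the receptor are filled on the right.

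The genes whose signal over the 8 arrays was most like that of each subunit were found by Pearson's r, as a description. They share the arrays, and so the shift of control rat 2, with the subunits. They were Pcsk1n, Rangap1 and Src for Grin1 (r = 0.997, 0.996 and 0.994) and Glra3, Gfra1 and Syt13 for Grin2a (r = 0.996, 0.989 and 0.988). For Grin2b they were Cbl, Trip11 and Dlg2 (r = 0.980, 0.976 and 0.971) and for Grin2c Stat2, Neo1 and Mapkapk3 (r = 0.978, 0.977 and 0.969). For Grin2d they were Prkg2, Hnrnpa2b1 and Sema6c (r = 0.997, 0.996 and 0.995) and for Grin3a Oaz2, Olr1397 and Rnf144a (r = 0.989, 0.988 and 0.988). Grin3b, in which control rat 2 did not stand apart, had the least close neighbours, Prr16, Tmem182 and Olr75 (r = 0.944, 0.925 and 0.913). Src and Dlg2 are also on the lists of genes around the receptor, where Src differed by 0.23 (limma adjusted p = 0.651).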

How the data were processed

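RNA of 8 rats was measured on 8 Agilent arrays. The intensity values that the authors deposited are the processed signal of Agilent Feature Extraction 10.7.3.1 per spot, corrected for background within each array. The authors name dChip for later steps. A deposited table of values equals this signal, rounded, to within 0.05 or the precision of the digits given.

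Of the spots, 4259 controls were left out and 58717, of 30367 probes, were kept. Outlier spots were set to missing, which left 10 probes without a value on some array and untested. Signals were scaled to the 75th percentile of the array on the log2 scale and replicate spots were averaged per probe. Testing was limited to probes well above background, by at least 0.5 of their spots, on at least 4 of the 8 arrays. Per array, 23005 to 24066 probes were well above background. Precision is set by the number of rats.

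Groups were taken from the sample titles and compared with limma 3.58.1 (lmFit, eBayes, R 4.3.3, with the package data.table, version 1.17.8), without covariates. P values were adjusted by Benjamini-Hochberg across the tested probes, and the threshold was 0.1. The fit was tested on simulated data with independent noise, which held no shift shared by the probes of an array. Each array was of a separate rat.

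All subunits and their probes were named, with the probe of the highest mean standing for a gene. From each list of other genes, those called, else that with the smallest p, and the largest rise and fall without overlap were named, and for each subunit the 3 most similar genes. The members and lists were chosen with earlier results of these data known.

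The alternatives were normexp with an offset of 50, quantile normalization, the table of values, no filter and a filter on all 8 arrays, array weights, replicate number as a block, the 5′ minus 3′ covariate, other choices of probe and leaving out each array. Removal of the GC trend was added after the data were seen. The miRNA arrays, RT-PCR and behaviour were not analysed here. The sequence and position of the Grin2a probe are not reported here.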

Additional observations from a re-analysis of the deposited data

Results flagged for a closer look

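In the control group, 1 rat lay far from the other 3 for 4 subunit probes, and it was control rat 2 each time. The gap to the nearest control rat, as a share of the range of the group, was 0.916 for Grin2d, 0.837 for Grin2a, and 0.84 and 0.847 for Grin3a probes 1 and 2, against a critical value of 0.83. Of 22 groups of values tested in this way, 4 passed, while chance flags about 1 in 20 groups (1.1 of 22). The 4 probes share the arrays and are not independent. The 5′ minus 3′ difference of control rat 2 (0.23) was also above that of the other controls (-0.31 to -0.18), and its part in these values was not tested.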

How the results depend on the processing

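With 4 arrays per group, limma called 0 of the 9 subunit probes (1 at unadjusted p under 0.05) with normexp, quantile normalization, the table of values, both other filters, GC trend removal and the replicate block, 5 with array weights, 4 with the covariate and 0 to 6 on leaving out each array in turn. Of all tested probes (23678, or 30357 without a filter), 885 were called in the fit given above. The count became 215 with normexp, 3010 without a filter and 11983 with array weights (control rat 2 weighing 0.107). It was 2347 with the covariate (9.91%) and 0 with the replicate block (4292 at unadjusted p). Leaving out control rat 2 gave 10036 and leaving out any other array 0 to 72. The share of higher calls was 74% (655 higher, 230 lower), 58.1% with quantile normalization, 88.4% with normexp, 85.2% without a filter and 49% with the covariate.

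Of the 62 genes around the receptor, 1 was called with quantile normalization, the filter on all 8 arrays, GC trend removal or the mean of probes (Shmt2 each time), 4 without a filter, 42 with array weights, 7 with the covariate and 0 to 36 on leaving out arrays. Of all tested probes, 3010 of 30357 were called without a filter and 11983 of 23678 with array weights. The share was 9.91% with the covariate and 42.4% without control rat 2. Grin2b minus Grin2a ranged from -0.22 to 0.045 on leaving out arrays, turning sign without control rat 2 and without stressed rats 2 or 4. Sign also turned for Grin3a with normexp (0.0015), array weights (0.28), GC trend removal (0.038) and the mean of probes (0.038), for Grin2b (-0.044) and Grin2c (0.0081) with quantile normalization, for Grin2c with array weights (0.011), and for Grin1 (-0.51), Grin2a (-0.18) and Grin2b (-0.62) with the covariate. The causes were not tested. On leaving out arrays Grin2b, Grin2c and Grin3a each turned sign, over ranges of -0.066 to 0.46, -0.10 to 0.043 and -0.18 to 0.31. Apart from the mean of probes, these values are of the probe that stands for each gene. Probe 2 of Grin1 and of Grin3a turned sign with quantile normalization (-0.12 and -0.052) and with the covariate (-0.48 and -0.84). Both also did so without control rat 1 (-0.057 and -0.055) and without control rat 3 (-0.025 and -0.075). Grin2b, Grin2c and Grin3b were called in 0 of 18 settings.

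No pairing of the rats by replicate number was visible. Same-numbered rats deviated from their group means with correlations of 0.10, 0.12, -0.09 and 0.31, and 1 of 8 arrays correlated best with its own number. Such correlations cannot tell whether same-numbered rats were handled together. With the replicate block, Grin2d differed by 0.98 (limma adjusted p = 0.253).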
